A study of Mus musculus with 6 samples.

Results

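The 10 genes described here are antimicrobial, acute phase and oxidant genes that lie downstream of the cytokines IL-17 and IL-22, with a chain of the IL-17 receptor and the cytokine gene Il6. They are Lcn2, Saa1, Saa3, Reg3b, Reg3g, Nos2, Duox2, Duoxa2, Il17ra and Il6. They were chosen by symbol through the GENCODE mouse annotation, release 21, from 55401 gene IDs in the deposited tables, and all 10 were found. RNA came from cells isolated from the lamina propria of the colon, the connective tissue under the epithelium, of male Apc Min/+ mice aged 5 to 6 weeks. The Min allele truncates the tumour suppressor APC, which restrains Wnt signals, and mice with one such allele develop adenomas of the gut. The vehicle group received 2% Tween 80 by gavage on alternate days (3 libraries) and the other group atorvastatin at 20 mg/kg on the same schedule (3 libraries). Both groups carried the Apc mutation, so no library stands for mice without it. Neither the length of treatment nor whether a library came from 1 animal or a pool is given in the sources used here. P-values therefore speak only for the spread among these 6 libraries, which may be technical.

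IL-17 binds a receptor built from the IL-17RA chain and a partner chain, and signals through NF-kappaB and C/EBP transcription factors. IL-22 binds IL-22RA1 with IL-10RB and signals through STAT3. In the gut wall both cytokines are known for inducing antimicrobial proteins and the enzymes that make reactive oxygen, largely in epithelial cells, while IL-17 also acts on fibroblasts and other stromal cells, where it raises Il6.

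RefSeq windows of 300 bases around the start (250 before it and 50 after it, build GRCm38.p6) were found for 8 of the 10 genes, and Nos2 and Il17ra had no entry. They were searched on both strands for a C/EBP motif (TTGCNNAA), for the 10-base kappaB motif and for a STAT motif (TTCNNNGAA). The C/EBP motif was found in the windows of 4 genes, Lcn2, Saa1, Saa3 and Il6, against 10.8% of 32851 windows of all genes. The kappaB motif was found in Il6 and Reg3g (8.46% of all windows), and the STAT motif in Reg3b alone (8.3% of all windows). No match was found in Duox2 or Duoxa2 with these letters. No link between a motif and the levels was tested. The 4 windows with a C/EBP match, the motif found in the most genes, are shown. Each runs 5′ to 3′ on the strand of its gene, up to the first annotated exon, and for Lcn2 only the 30 bases around the match are given. Capitals mark the motif matches, which may read as the reverse complement: C/EBP in each sequence, and kappaB nearest the 3′ end of Il6.
Lcn2, chr2:32387937-32387966, minus strand: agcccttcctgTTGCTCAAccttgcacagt
Saa1, chr7:46742981-46743230, minus strand: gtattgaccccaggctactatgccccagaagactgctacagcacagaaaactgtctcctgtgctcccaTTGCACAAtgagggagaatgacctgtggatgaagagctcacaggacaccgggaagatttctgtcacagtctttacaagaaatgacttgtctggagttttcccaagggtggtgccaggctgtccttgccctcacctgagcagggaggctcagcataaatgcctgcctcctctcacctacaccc
Saa3, chr7:46715701-46715926, minus strand: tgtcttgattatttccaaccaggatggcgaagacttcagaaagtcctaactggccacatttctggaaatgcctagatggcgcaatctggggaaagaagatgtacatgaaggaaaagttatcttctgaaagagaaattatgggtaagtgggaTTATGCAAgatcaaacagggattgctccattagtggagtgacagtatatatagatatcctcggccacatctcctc
Il6, chr5:30012864-30013113, plus strand: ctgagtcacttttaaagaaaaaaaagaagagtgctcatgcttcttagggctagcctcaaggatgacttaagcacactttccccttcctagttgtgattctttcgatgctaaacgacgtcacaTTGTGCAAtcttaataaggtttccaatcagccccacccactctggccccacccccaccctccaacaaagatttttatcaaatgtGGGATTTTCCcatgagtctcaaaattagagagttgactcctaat
The C/EBP match lay between bases -216 and -209 before the start in Lcn2, -182 and -175 in Saa1, -99 and -92 in Saa3, and -128 and -121 in Il6. The kappaB match of Il6 lay between bases -44 and -35. Positions count from the RefSeq start, which in Lcn2 and Saa3 lies inside the gene span given below. Of the 250 bases before it, 197 lie in annotated exons in Lcn2 and 24 in Saa3.

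Values are FPKM, fragments scaled by the authors to gene length and library. Their sums per library lay between 355787 and 456064, and each detected 13303 to 13703 genes at a level of at least 1 FPKM. How many fragments lie behind a value is unknown, so no counting interval can be given. Vehicle library 3 stood apart, with a mean Pearson's r of 0.944 to the other 5 libraries across genes, against 0.957 to 0.961 for those, and results of members that move with it are given with and without it. The isolated cells held RNA of several compartments: Dcn, a fibroblast proteoglycan, had 315 to 388 FPKM and Jchain, of plasma cells, 1397 to 4117. Epcam, of epithelial cells, had 8.27 to 13.6 FPKM, so the isolated cells held some epithelial RNA.

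The 10 genes spanned a wide range of levels, and 2 of them were not detected. Il6 was the most abundant, with a mean of 78.3 FPKM over the 6 libraries, above 95.4% of the 13590 genes that reached 1 FPKM in at least 3 libraries. Il17ra (mean 18.3 FPKM) and Lcn2 (mean 13.6 FPKM) followed, with overlapping ranges, and both lay below every Il6 value. Duox2 (1.62), Saa3 (1.24), Duoxa2 (1.12), Nos2 (0.77) and Saa1 (0.41) formed a low group, in which each gene's range overlapped that of the next. Reg3g and Reg3b were listed at 0 in all 6 libraries. Of the 10 genes, 6 passed the filter of 1 FPKM in 3 libraries and were tested. Among these, Saa3 reached 1 FPKM in 3 atorvastatin libraries but 1 vehicle library, and Duoxa2 in 3 vehicle libraries but 1 atorvastatin library. The filter kept those 2 mainly through a single group.

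**Figure D1:**
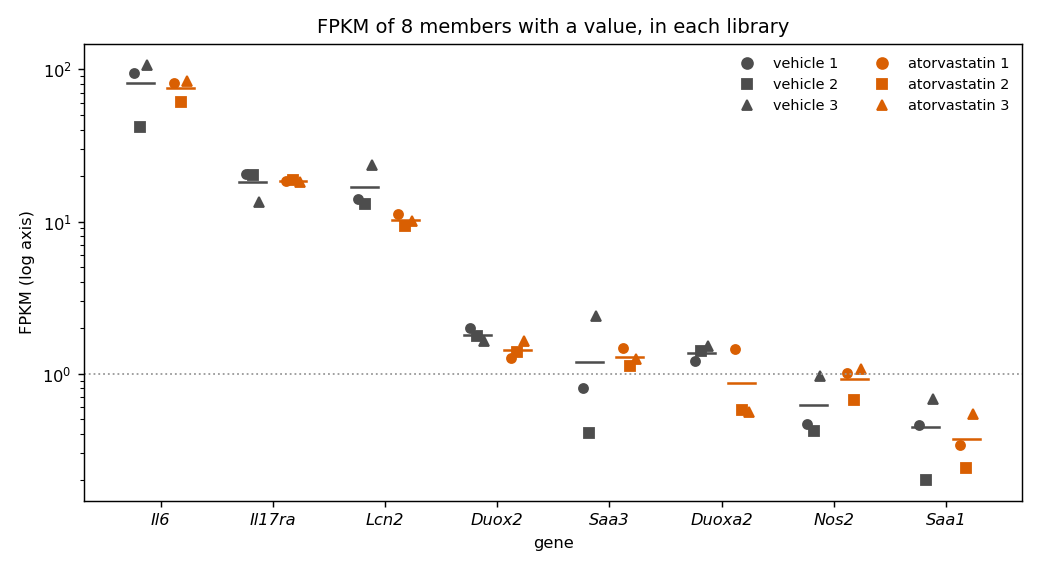
FPKM (log axis) of the 8 members with a value, in each library. Symbols are libraries, grey for vehicle and orange for atorvastatin, short bars are group means and the dotted line is 1 FPKM. Il6 sits highest, between 41.6 and 107 FPKM, and Lcn2 is the only gene whose grey and orange points do not overlap.

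With atorvastatin none of the 6 tested genes passed the threshold. Called genes were 0 higher and 0 lower in limma at an adjusted p of 0.05, beside 0% of all 13590 genes. At an unadjusted p under 0.05, 1 of the 6 had a lower level (Lcn2) and 0 a higher one, beside 7.17% of all genes (3.13% higher and 4.04% lower). Lcn2 was also the 1 of 6 whose groups did not overlap, beside 14.4% of all genes (5.53% higher and 8.85% lower). A single gene of 6 is no result about the set. The median difference of the 6 was -0.105 on the log2(FPKM + 1) scale, against -0.016 over all genes tested, of which 53% were below 0. Of all genes at an unadjusted p under 0.05, 56.4% were lower as deposited and 36.1% with equal library sums after immunoglobulin, ribosomal and mitochondrial genes were set aside.

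Lcn2 (ENSMUSG00000026822, mm10 chromosome 2, 32384633 to 32387797, minus strand) encodes lipocalin 2, which withholds iron from bacteria by binding their siderophores. It had 14.13, 12.98 and 23.66 FPKM in vehicle libraries 1 to 3, and 11.24, 9.41 and 10.13 FPKM in atorvastatin libraries 1 to 3. Every atorvastatin library lay below every vehicle library, and vehicle library 3 stood far above the other 5. Group means were 16.9 ± 5.86 FPKM in the vehicle group and 10.3 ± 0.922 in the atorvastatin group (SD, n = 3 each), a ratio of 0.606. The log2 difference was -0.63 (SE 0.22, 95% interval -1.16 to -0.10), with an adjusted p of 0.692 in limma and an unadjusted p of 0.027. Without vehicle library 3 the difference was -0.37 (limma adjusted p = 0.589). The unadjusted limma p was 0.0294, 0.0145 and 0.0188 without vehicle libraries 1, 2 and 3 in turn. Without atorvastatin libraries 1, 2 and 3 in turn it was 0.0422, 0.0789 and 0.0647. Over the alternatives run the adjusted p of Lcn2 ranged from 0.577 to 0.988. In bulk RNA such as this, fewer cells of a type and less RNA per cell cannot be told apart.

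Lcn2 is also a granule gene of neutrophils, and the values of 3 other genes of neutrophils are given beside it, picked out after their values were seen because their groups do not overlap. S100a9, a calprotectin subunit, had 5.21, 3.52 and 3.40 FPKM with vehicle and 1.60, 2.75 and 1.20 with atorvastatin. Its partner S100a8 had 1.60, 1.03 and 1.58 FPKM with vehicle and 0.84, 0.52 and 0.22 with atorvastatin. Ltf, which encodes the granule protein lactoferrin, had 0.30, 0.16 and 0.51 FPKM with vehicle and 0.06, 0.05 and a listed 0 with atorvastatin. In all 3 genes the groups did not overlap, and none passed: the limma adjusted p was 0.692 for S100a9 and for S100a8, and the exact two-sided permutation test of Ltf gave p = 0.1, the smallest that 3 against 3 libraries allow. S100a8 reached 1 FPKM in vehicle libraries alone and so was tested only for its vehicle values. Unlike Lcn2, S100a9 was not highest in vehicle library 3. Among other neutrophil genes, Il1r2, given below, also showed this separation, and Retnlg and Csf3r did not. Retnlg had 0.80, 9.98 and 6.23 FPKM with vehicle and 6.43, 2.31 and 3.57 with atorvastatin (limma adjusted p = 0.974). Csf3r, the G-CSF receptor gene, had 0.96, 1.31 and 1.51 FPKM with vehicle and 1.17, 1.15 and 1.05 with atorvastatin (limma adjusted p = 0.883). In both genes the groups overlapped.

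Over the whole list of 14 neutrophil markers, of which 5 were tested and 0 were listed at 0 throughout, the summed level was 27.4 to 34.6 FPKM with vehicle and 19.4 to 26.2 with atorvastatin. Of the 5 tested, 5 were below 0 in log2 difference, beside 53% of all genes. That count was 4 with a pseudocount of 0.1 FPKM. It was also 4 when vehicle library 2, vehicle library 3 or atorvastatin library 2 was left out. S100a8 is in the count and passed the filter through the vehicle group alone, where it is higher. The list shares S100a8, S100a9, Ltf and Camp with the list of other effectors. Its most abundant members were Il1r2 and Retnlg, and Il1r2, a decoy receptor gene that other cells also express, had 17.5 ± 1.96 FPKM with vehicle and 13.5 ± 1.47 with atorvastatin (SD, n = 3 each). The Il1r2 values were 16.51, 16.28 and 19.79 FPKM with vehicle and 14.84, 13.71 and 11.92 with atorvastatin, without overlap (limma adjusted p = 0.692). The defining marker Ly6g was at 0 to 0.32 FPKM and Camp at 0 to 0.15 with vehicle and 0 to 0.26 with atorvastatin. The 14 epithelial markers summed to 40.7 to 55.8 FPKM with vehicle and 25.3 to 56.6 with atorvastatin, with 10 of 10 tested members below 0 in log2 difference. That count was 8 without vehicle library 2. It was 9 when vehicle library 1, atorvastatin library 1 or atorvastatin library 3 was left out. The most abundant after Epcam, the keratin gene Krt8, had 9.36 ± 2.97 and 6.03 ± 4.75 FPKM (SD, n = 3 each). The 12 macrophage markers summed to 148 to 312 FPKM with vehicle and 245 to 267 with atorvastatin, led by Lyz2 and C1qb. Of the 11 macrophage markers tested, 0 were below 0 in log2 difference. The 10 fibroblast markers, led by Dcn and Dpt, summed to 1189 to 1560 and 1162 to 1456 FPKM, with 5 of 10 below 0. Among other lists, 5 of 8 tested B cell and plasma cell markers were below 0, 2 of 6 endothelial and 3 of 7 type 3 lymphocyte markers. In 4 of the 8 B cell and plasma cell markers the groups did not overlap, all lower with atorvastatin. The part of neutrophil or epithelial RNA in the Lcn2 difference was not tested. Dissociation response genes, 10 listed, were led by the heat shock genes Hspa1b and Hspa1a. They summed to 5827 to 5948 FPKM with vehicle and 6549 to 9083 with atorvastatin. Of these 10 genes, 0 were below 0 in log2 difference, and their part was not tested either.

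**Figure D2:**
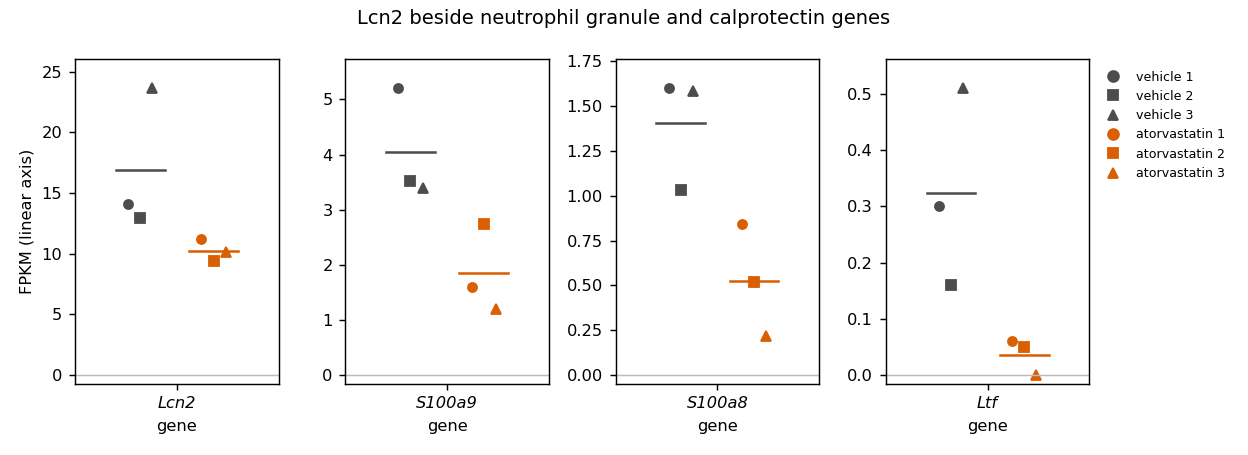
FPKM (linear axes, each gene on its own scale) of Lcn2, S100a9, S100a8 and Ltf in each library, with group means as short bars. In all 4 genes the orange atorvastatin points lie below the grey vehicle points. S100a9, S100a8 and Ltf were picked for that separation after their values were seen, so the shared pattern was set by the choice. Retnlg and Csf3r, neutrophil genes whose groups overlap, are not shown. The vehicle 3 library is the highest for Lcn2 (23.66 FPKM) but not for S100a9 (3.40 FPKM).

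Saa1 and Saa3 encode serum amyloid A proteins, acute phase apolipoproteins that bind retinol and act on immune cells. Both lie on chromosome 7, minus strand, Saa3 (ENSMUSG00000040026) at 46711998 to 46715700 and Saa1 (ENSMUSG00000074115) at 46740497 to 46742980, 24796 bases apart. Saa3 had 0.80, 0.41 and 2.39 FPKM with vehicle and 1.47, 1.12 and 1.25 with atorvastatin. The vehicle libraries held both the lowest and the highest value, 5.83-fold apart, and the atorvastatin libraries lay between them. The log2 difference was 0.15 (SE 0.31, 95% interval -0.59 to 0.89, limma adjusted p = 0.915). It was -0.12 without vehicle library 2 and 0.51 without vehicle library 3 (limma adjusted p = 0.896 and 0.589), and 0.39 with a pseudocount of 0.1 FPKM (limma adjusted p = 0.867). Saa1, which stayed below 1 FPKM in all 6 libraries, had 0.46, 0.20 and 0.68 FPKM with vehicle and 0.34, 0.24 and 0.54 with atorvastatin. Its groups overlapped almost fully (log2 difference -0.07, exact two-sided permutation p = 0.8, smallest possible p = 0.1), and the sign turned without vehicle library 3 (0.05) or atorvastatin library 2 (0.003). The difference was -0.15 with a pseudocount of 0.1 FPKM. Saa3 was above Saa1 in every library, by 1.74 to 4.67 times per unit of length. The near-identical neighbour Saa2 can share reads with Saa1, so the Saa1 value is uncertain. Saa2 itself was at 0 to 0.15 FPKM.

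Reg3b (ENSMUSG00000071356, chromosome 6, 78370657 to 78373466, plus strand) and Reg3g (ENSMUSG00000030017, chromosome 6, 78466269 to 78468872, minus strand) encode secreted lectins of gut epithelium that kill or hold off bacteria. Both were listed at 0 in each vehicle and each atorvastatin library, so no fold change or test was made. Of 7 genes of the Reg family, 6 were listed at 0 in all libraries, and the exception was Reg4, of enteroendocrine and goblet cells, with 0.11 to 1.27 FPKM. All 12 housekeeping genes checked were above 0 in every library, and 17.9% of protein-coding genes were listed at 0 in all 6 libraries. Without fragment numbers no upper limit can be put on the Reg3 levels.

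Duox2 and Duoxa2 encode a hydrogen peroxide-producing oxidase and the maturation factor it needs to reach the cell surface. They are divergent neighbours on chromosome 2, with 450 bases between them: Duox2 (ENSMUSG00000068452) at 122279247 to 122298449 on the minus strand and Duoxa2 (ENSMUSG00000027225) at 122298900 to 122302885 on the plus strand. Duox2 had 2.01, 1.76 and 1.63 FPKM with vehicle and 1.27, 1.39 and 1.64 with atorvastatin. The groups touched at a single pair of values, the lowest vehicle and the highest atorvastatin library. The log2 difference was -0.20 (SE 0.12, 95% interval -0.48 to 0.08, limma adjusted p = 0.713). With median-of-ratios scaling the Duox2 groups no longer overlapped (1.63 to 2.00 with vehicle, 1.26 to 1.55 with atorvastatin), and the limma adjusted p was 0.667. With a pseudocount of 0.1 FPKM the difference was -0.31 (limma adjusted p = 0.715).

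Duoxa2 had 1.21, 1.41 and 1.51 FPKM with vehicle and 1.46, 0.58 and 0.56 with atorvastatin. Atorvastatin libraries 2 and 3 lay well below the vehicle libraries, and atorvastatin library 1 lay among them. The log2 difference was -0.38 (SE 0.20, 95% interval -0.85 to 0.09, limma adjusted p = 0.696), and -0.60 without atorvastatin library 1 (limma adjusted p = 0.94). With a pseudocount of 0.1 FPKM it was -0.73 (limma adjusted p = 0.703). The 2 partners did not follow the same order of libraries: the ratio of Duox2 to Duoxa2 ran from 0.87 in atorvastatin library 1 to 2.93 in atorvastatin library 3. Their paralogues Duox1 and Duoxa1 were at 0 to 0.09 and 0.04 to 0.11 FPKM. Duoxa1 overlaps Duoxa2 by 695 bases on the opposite strand, and reads from that stretch cannot be told apart if strand was not used.

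Nos2 (ENSMUSG00000020826, chromosome 11, 78920787 to 78960254, plus strand) encodes inducible nitric oxide synthase. It had 0.47, 0.42 and 0.97 FPKM with vehicle and 1.01, 0.67 and 1.08 with atorvastatin. Among atorvastatin libraries, 2 were above every vehicle library, and the remaining one fell between vehicle libraries. Group means were 0.62 ± 0.304 and 0.92 ± 0.219 FPKM (SD, n = 3 each), a ratio of 1.48. Only 2 libraries reached 1 FPKM, so Nos2 was outside the test across genes. The exact two-sided permutation test gave p = 0.2, for a log2 difference of 0.25 that was 0.56 with a pseudocount of 0.1 FPKM. Without vehicle library 3 the difference was 0.40 and the groups did not overlap (exact two-sided permutation p = 0.2), and without vehicle library 2 it was 0.17 (exact p = 0.5).

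Il17ra (ENSMUSG00000002897, chromosome 6, 120463247 to 120487559, plus strand), the shared chain of the IL-17 receptors, had the smallest spread of the set, with a highest value 1.53 times the lowest (1.58 for Duox2). It had 20.56, 20.11 and 13.48 FPKM with vehicle and 18.53, 18.84 and 18.06 with atorvastatin. The 3 atorvastatin values lay within a narrow band that fell inside the vehicle range, and vehicle library 3 was the lowest. The log2 difference was 0.05 (SE 0.17, 95% interval -0.35 to 0.46, limma adjusted p = 0.945), and -0.13 without vehicle library 3 (limma adjusted p = 0.664). Its partner chain Il17rc had 2.22 to 3.87 FPKM, so Il17ra was 4.65 to 8.49 times as abundant per unit of length.

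Il6 (ENSMUSG00000025746, chromosome 5, 30013114 to 30019981, plus strand) encodes interleukin 6, the cytokine that drives the acute phase response. It had 94.55, 41.64 and 107.24 FPKM with vehicle and 81.91, 60.80 and 83.79 with atorvastatin. The vehicle libraries held the extremes at both ends, and all atorvastatin libraries lay inside the vehicle range. Group means were 81.1 ± 34.8 and 75.5 ± 12.8 FPKM (SD, n = 3 each). The log2 difference was -0.01 (SE 0.36, limma adjusted p = 0.999), with a 95% interval from -0.86 to 0.85 that leaves room for changes of either sign. Leaving out single libraries moved it between -0.42 without vehicle library 2 (limma adjusted p = 0.581) and 0.25 without vehicle library 3 (limma adjusted p = 0.822).

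**Figure D3:**
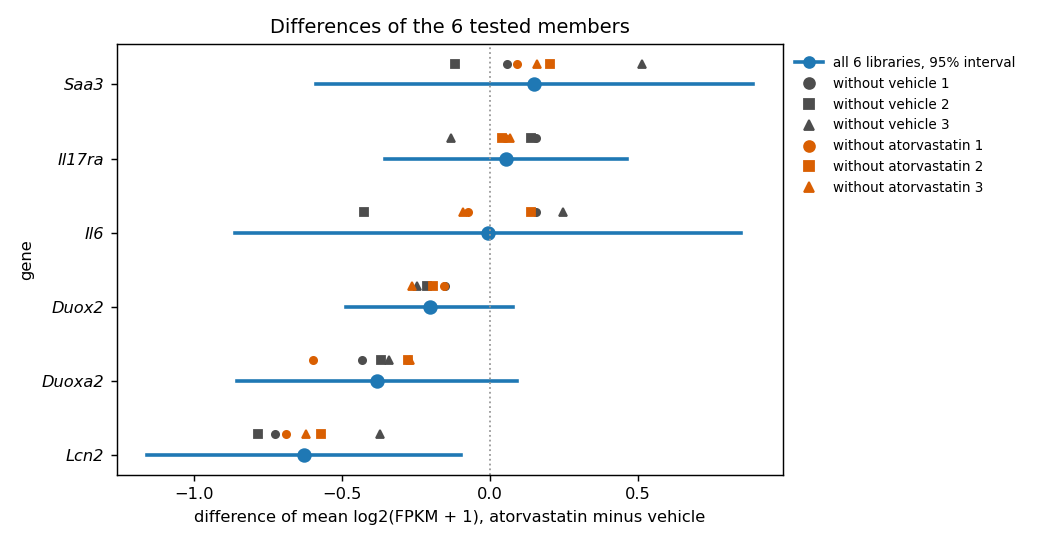
Difference of mean log2(FPKM + 1), atorvastatin minus vehicle, for the 6 tested members. Blue points and lines are the estimate and its 95% interval over all 6 libraries, and small symbols above each line are the estimates without 1 library. Lcn2 is the only interval clear of 0 before adjustment (-1.16 to -0.10), and Saa3, Il17ra and Il6 have estimates without 1 library on both sides of 0.

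Within groups, several of the genes put the libraries in a common order. Lcn2, Saa1, Saa3, Nos2 and Il6, 5 of the 8 genes with a value, were highest in vehicle library 3 and lowest in vehicle library 2 among the vehicle libraries, and lowest in atorvastatin library 2 among the atorvastatin libraries. Of all 13590 genes tested, which leave out Saa1 and Nos2, 15.1% had this order. Among the 6 tested members it was found in Lcn2, Saa3 and Il6. Taken singly, vehicle library 3 was the highest vehicle library for 6 of the 8 genes (39.1% of all genes tested), vehicle library 2 the lowest vehicle library for 5 (31.9%), and atorvastatin library 2 the lowest atorvastatin library for 5 (51.4%). Saa1 and Nos2 are in these counts but not among the genes behind the shares. Il22 had the same order, with 57.93, 32.07 and 84.79 FPKM with vehicle and 46.37, 22.39 and 32.12 with atorvastatin. So did Socs3 and Nfkbiz. Cebpd, a C/EBP factor gene induced by IL-17, also had the order, with 37.46, 34.39 and 57.65 FPKM with vehicle and 64.25, 38.74 and 54.35 with atorvastatin. Other ligands and the related factor gene Cebpb did not: Il17a was highest in vehicle library 1, Il17f was lowest in atorvastatin library 3, Il17c was lowest in vehicle library 3, and Cebpb was lowest in vehicle library 1. Of the 49 tested genes of the pathway lists described next, 6 had the order (12.2%), below the share over all genes. Among the members, Duox2, Duoxa2 and Il17ra did not follow it. The order was noticed in these values, and no test was made of it.

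**Figure D4:**
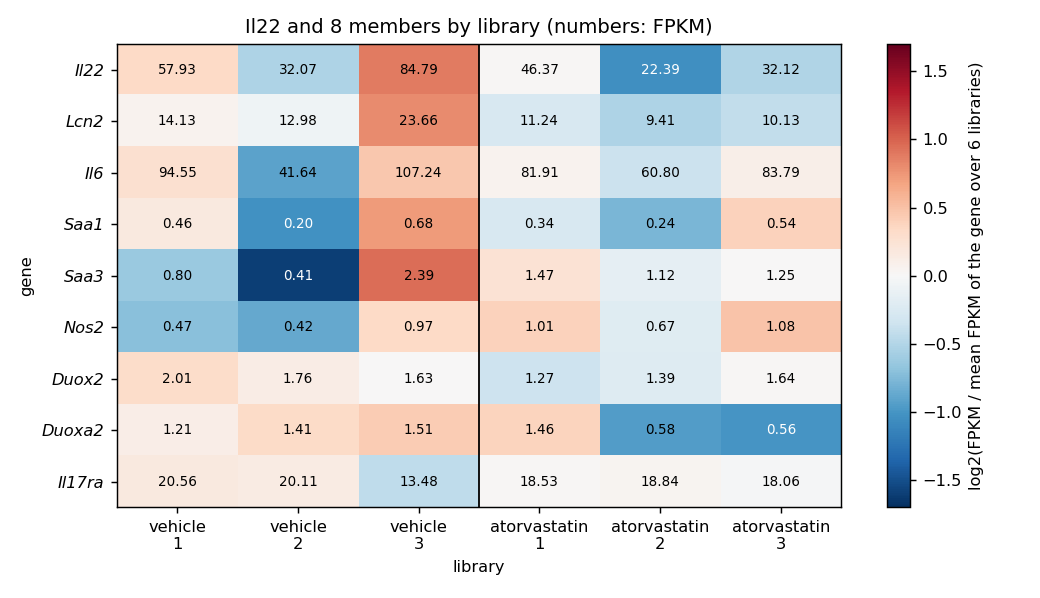
Each row is a gene (Il22 and the 8 members with a value) and each column a library, with FPKM printed in the cells. Colour gives log2 of FPKM over the gene's mean across the 6 libraries. Vehicle 3 is red and vehicle 2 blue for Il6, Saa1 and Saa3, while the Il17ra row is lowest in vehicle 3 (13.48 FPKM).

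The other genes of the pathway were read from lists set by function: 7 ligands, 9 receptor chains, 20 signalling genes, 28 other effectors and 15 oxidant genes. Of these 79 genes 49 were tested, and 0 were called higher and 0 lower in limma. At an unadjusted p under 0.05 there were 2 higher (Il17c and Muc1) and 2 lower (S100a8 and S100a9), and the groups did not overlap in 1 higher (Muc1) and 3 lower (S100a8, S100a9 and Cybb). That is 4 of 49 in each case, beside 7.17% of all genes for the first count and 14.4% for the second, so neither count is a result about the lists. S100a8 passed the filter through the vehicle group, where it is higher. Their median log2 difference was 0.00, against -0.016 over all genes, and 24 of the 49 were below 0, beside 53% of all genes.

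Among the ligands, Il22 was by far the most abundant, and its log2 difference was -0.73 (SE 0.39, limma adjusted p = 0.699). That difference was -0.41 without vehicle library 3, -0.48 without atorvastatin library 2 and -1.10 without vehicle library 2 (limma adjusted p = 0.712, 0.798 and 0.577). Il17a had 1.03, 0.80 and 0.95 FPKM with vehicle and 0.64, 0.69 and 0.41 with atorvastatin, without overlap, and the exact two-sided permutation test gave p = 0.1, its smallest value. Il17f was at 1.88 ± 0.744 and 1.87 ± 0.241 FPKM (SD, n = 3 each), and Il17d, a distant relative, at 1.82 ± 0.987 and 1.32 ± 0.287. Il17c, a form of IL-17 known from epithelial cells, had 0.79, 1.17 and 0.59 FPKM with vehicle and 1.82, 1.08 and 2.20 with atorvastatin. It reached 1 FPKM in 1 vehicle library and 3 atorvastatin libraries, and its log2 difference was 0.53 (SE 0.20, limma adjusted p = 0.692).

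The IL-22RA1 chain of the IL-22 receptor was close to undetected. Il22ra1 was listed at 0 in 5 libraries and at 0.02 FPKM in atorvastatin library 2. Its partner Il10rb, which also serves the IL-10 receptor, was at 15.1 ± 0.862 and 15.1 ± 1.48 FPKM (SD, n = 3 each). Il22ra2, the secreted protein that binds and blocks IL-22, had 0.32 to 1.27 FPKM. For IL-6 itself, the signalling chain Il6st had 22.9 to 40.6 FPKM over the 6 libraries, and the binding chain Il6ra had 3.63 ± 0.465 FPKM with vehicle and 4.46 ± 1.29 with atorvastatin (SD, n = 3 each).

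All 20 signalling genes were tested, and 6 of them were below 0. The most abundant were Socs3, a feedback inhibitor of STAT3, at 292 ± 47.3 FPKM with vehicle and 359 ± 75.1 with atorvastatin (SD, n = 3 each), Jak1 at 85.5 ± 8.28 and 96.7 ± 11, and Stat3 at 78 ± 8.53 and 79.3 ± 7.77. None had an unadjusted p under 0.05 in limma. Of the 28 other effectors 11 were tested, and 7 were listed at 0 throughout: Bpi, Defb14, Defb3, Pla2g2a, Reg1, Reg3a and Reg3d. The most abundant were the complement gene C3 at 114 ± 18.6 and 120 ± 6.44 FPKM, the lysozyme gene Lyz2 at 97.0 ± 38.4 and 113 ± 6.04, and the protease inhibitor Slpi at 28.2 ± 6.49 and 25.4 ± 12.2 (SD, n = 3 each). Muc1, a membrane mucin, had 7.05, 5.72 and 6.60 FPKM with vehicle and 9.57, 8.42 and 10.18 with atorvastatin, without overlap (log2 difference 0.48, SE 0.12, limma adjusted p = 0.692).

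Of 15 other oxidant genes 9 were tested, and 8 were below 0, with a median log2 difference of -0.22, beside 53% below 0 and a median of -0.016 over all genes. With equal library sums after abundant classes were set aside, 7 were below 0 with a median of -0.17. The phagocyte oxidase chains led the list. Cyba had 79.1 ± 8.12 FPKM with vehicle and 67.7 ± 6.30 with atorvastatin (SD, n = 3 each). Cybb, the catalytic chain, had 31.96, 27.11 and 28.57 FPKM with vehicle and 25.90, 22.31 and 26.10 with atorvastatin, without overlap (log2 difference -0.23, SE 0.12, limma adjusted p = 0.698). Ncf4 was at 15.4 ± 3.80 and 12.7 ± 0.840 FPKM (SD, n = 3 each). These phagocyte genes were at higher levels per unit of length than Duox2 or Nos2 in every library.

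For the 3 most abundant members, the genes with the most similar profile over the 6 libraries were listed by Pearson's r of log2(FPKM + 1) among the 13590 genes tested, as a description. For Il6 these were Znrd1as (r = 0.998), Rpl17-ps8 (0.992) and Ccl11 (0.991), the last of which encodes the eosinophil chemokine eotaxin. For Lcn2 they were Cfap36 (0.999), Rbm3 (0.995) and Rpl39 (0.995), and for Il17ra Gpat4 (0.999), Kat14 (0.998) and Stat5a (0.997). With 6 points many genes come this close: 51 genes had an r above 0.95 to Il6, 164 to Lcn2 and 151 to Il17ra. All these profiles come from the same 6 libraries and share their composition.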

How the data were processed

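Per the submitters' processing notes, FastQC 0.11.2, Bowtie and the genome build mm10 were used. The authors deposited FPKM per gene for each library, with 2 decimals, per the file headers. Neither quantifier, annotation, strand setting nor fragment numbers are given in the sources used here, so depth is unknown. Symbols came from GENCODE mouse release 21, with the same start and end for 51957 of 55401 IDs, and 260 had no symbol. The 13590 genes that reached 1 FPKM in 3 or more of the 6 libraries were tested on log2(FPKM + 1), which understates changes of low genes, with limma 3.58.1 (limma-trend, R 4.3.3) and Benjamini-Hochberg adjustment over all genes at 0.05. The test was checked on simulated data, with changes far larger than those of the members. Its power for smaller changes was not measured. Members below the filter had an exact permutation test. The members and lists were chosen with earlier results of these data known. Named genes were all members, the 3 most abundant of each pathway list, the 2 most abundant of the neutrophil, epithelial, macrophage, fibroblast and dissociation lists, the 3 genes most like each of 3 members, and 6 cytokine and receptor genes, and others were named after their values were seen. Promoter windows came from RefSeq (GRCm38.p6). Deviations of same-numbered libraries across genes had r = -0.109, 0.137 and -0.015, inside the range for differently numbered ones (-0.162 to 0.192). The sources used here do not say whether replicate numbers pair libraries, so they were treated as unpaired. Alternatives were the pseudocount, filter, scaling, variance model, replicate block and leaving out each library.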

Additional observations from a re-analysis of the deposited data

How the results depend on the processing

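The count of members and of pathway genes past the threshold was 0 in limma in all 13 alternatives. Over all genes it was 0 as reported (974 at an unadjusted p under 0.05) and ranged from 0 to 3 without single libraries: 1 (Gm8210) without atorvastatin library 1, and 3 (Gm15564, Gm26712 and Igkv1-99) without atorvastatin library 3. With the replicate block 0 genes passed and 852 had an unadjusted p under 0.05. Without a filter 0 of 32406 genes passed, and 1761 had an unadjusted p under 0.05. Lcn2, Duox2 and Duoxa2 were negative and Nos2 positive in every alternative run. The sign turned for Saa1 without vehicle library 3 (0.047) or atorvastatin library 2 (0.003), for Saa3 without vehicle library 2 (-0.12), and for Il17ra without vehicle library 3 (-0.13). Il6 turned with equal sums after abundant classes were set aside (0.044) and without vehicle library 1 (0.16), vehicle library 3 (0.25) or atorvastatin library 2 (0.14). Without single libraries the difference ran from -0.195 to 0.047 for Saa1, -0.118 to 0.514 for Saa3, -0.132 to 0.156 for Il17ra, -0.425 to 0.247 for Il6, 0.168 to 0.404 for Nos2, -0.782 to -0.372 for Lcn2, -0.263 to -0.150 for Duox2 and -0.596 to -0.268 for Duoxa2. The cause was not tested. Unknown depth leaves values near or below 1 FPKM (Saa1, Saa3, Nos2, Duox2, Duoxa2) with no counting error.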
